A study of Mus musculus with 6 samples.

Results

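The dual-specificity phosphatase (Dusp) genes described here are Dusp1, Dusp2, Dusp4, Dusp5, Dusp6, Dusp7, Dusp10, Dusp11, Dusp16 and Dusp22. They are 10 of the 24 genes with a Dusp symbol among the 49315 genes of the count table. The 10 genes were chosen by name with their levels in skin and lymph node libraries already known, so their levels and fold changes are given as a description. Where calls of the fit across all genes are counted over the 10, they stand beside the share of all genes, and nothing is read from them. By family membership, 8 of the 10 are MAP kinase phosphatases. The remaining members, Dusp11 and Dusp22, belong to the atypical group of the family.

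Regulatory T cells (Tregs) of Foxp3-GFP mice, for which the labels name no treatment, were isolated at postnatal day 9 from skin and its draining lymph nodes (SDLNs), and the comparison asks how Tregs of the 2 tissues differ in their transcripts. After tissue digestion, cells of 3 mice were pooled into 1 sample, enriched on CD45 beads and sorted as DAPI- CD45+ CD4+ Foxp3-EGFP+ cells into TRIzol LS. Each tissue gave 3 libraries, all of batch 1, named A to C here as in the count table, and no source links a letter of one tissue to the same letter of the other. Since the labels name skin as the tissue of all 6 samples, the groups follow the sample titles.

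MAP kinase phosphatases remove the phosphates from the threonine and tyrosine of the activation loop of ERK, JNK and p38, and so switch these kinases off. Many of their genes are induced by the kinases that they inactivate, which makes them feedback brakes. Dusp1, Dusp2, Dusp4 and Dusp5 are inducible nuclear enzymes, Dusp6 and Dusp7 act on ERK in the cytoplasm, and Dusp10 and Dusp16 act mainly on JNK and p38. In T cells these enzymes limit signalling downstream of the antigen receptor, and Dusp1 is also known as an immediate early gene that responds to stress, growth factors and glucocorticoids.

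Promoter sequence is shown for Dusp1 and Dusp5, the members that were higher in every skin library than in any SDLN library, and for Dusp6, an ERK phosphatase near the floor of the skin libraries. RefSeq (GRCm38.p6) gave a promoter of 300 bases for 9 of the 10 genes, from 250 bases before the start to 50 after it, and none for Dusp4. The 200 bases from -250 to -51 are printed 5′ to 3′ on the strand of the gene, with searched motifs in capitals. The windows lie at chr17:26508523-26508722 on the minus strand for Dusp1, at chr19:53528895-53529094 on the plus strand for Dusp5 and at chr10:99262981-99263180 on the plus strand for Dusp6.
Dusp1: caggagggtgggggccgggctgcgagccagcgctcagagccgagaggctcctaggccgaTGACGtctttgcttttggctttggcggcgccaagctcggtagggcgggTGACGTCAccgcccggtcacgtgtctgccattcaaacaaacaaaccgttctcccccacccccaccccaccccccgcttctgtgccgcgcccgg
Dusp5: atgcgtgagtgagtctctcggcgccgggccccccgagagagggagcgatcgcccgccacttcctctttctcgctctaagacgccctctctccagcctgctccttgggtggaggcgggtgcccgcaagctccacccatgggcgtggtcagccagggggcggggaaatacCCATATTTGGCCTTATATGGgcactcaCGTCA
Dusp6: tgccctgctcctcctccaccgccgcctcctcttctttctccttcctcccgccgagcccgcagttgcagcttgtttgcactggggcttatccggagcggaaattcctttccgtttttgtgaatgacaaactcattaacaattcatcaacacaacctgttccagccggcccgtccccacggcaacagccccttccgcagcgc

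The motifs searched on both strands were the cAMP response element (CRE, TGACGTCA), its core letters (TGACG, called the CRE core here, which each CRE also holds), the AP-1 site (TGANTCA) and the CArG box, which serum response factor binds. The Dusp1 promoter held a CRE with its first base at -143 and a separate core at -191. A CRE was found in 1.79% of the 32851 RefSeq promoters searched. The Dusp5 promoter held 2 adjacent CArG boxes, at -82 and -72, and a CRE core at -55 on the other strand, and 1.63% of all promoters held a CArG box. A CRE core was found in 5 of the 9 members (Dusp1, Dusp2, Dusp5, Dusp11 and Dusp16) and in 20.8% of all promoters. The AP-1 letters were in none of the 9 and in 7.81% of all promoters. None of the 4 motifs was in the Dusp6 window. These are letter matches only, and no binding was measured.

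The skin libraries were shallower than the SDLN libraries. They held between 3748669 and 11741784 counts, against 47243498 to 116158706 in SDLN, and between 2911 and 5317 genes at 1 CPM or more (counts scaled to a library total of 1000000), against 12397 to 13002. The floor used throughout is 3 counts, the most that a count of 0 allows, which is 0.800 CPM in skin A, 0.255 in skin B and 0.332 in skin C. Of the 1760 genes with a mean of 100 to 300 CPM in SDLN, 149 were at or under this floor in all 3 skin libraries. The share was 28.7% of the 3649 genes at 30 to 100 CPM and 56.5% of the 2680 genes at 10 to 30 CPM. A zero in a skin library was therefore common for genes of the SDLN level of most members, although these levels lie above the floors, and its cause was not tested.

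The labelled cell type was checked on its defining markers. Foxp3, the transcription factor of the sort reporter, had 0, 330 and 1 counts in skin A, B and C, and Cd4 had 0, 1861 and 2. In SDLN the counts of Foxp3 were 12208, 10133 and 1788. Of the 16 genes of the pan T cell and Treg list, 12 were above the floor in all 3 skin libraries. Besides Foxp3 and Cd4, Cd3e and Cd5 had 0 counts in skin A, and both were above the floor in skin B and skin C. The summed level of the list was 8249, 11760 and 10275 CPM in skin and 13732 to 14381 CPM in SDLN. A myeloid list of 20 genes summed to between 34903 and 61567 CPM in skin and to between 446 and 781 CPM in SDLN, and 17 of its 19 tested genes were called higher in skin, where 1.04% of all genes tested were. Itgam was at 0 in every skin library, and Cd74, the MHC class II invariant chain, carried the largest part of the sum. Because skin A and skin C lack Foxp3 and Cd4 above the floor, values of skin B are given on their own where a group difference rests on them, and libraries are named by tissue only.

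Dusp1 had by far the highest level per kilobase of exon of the 10 genes in each skin library. In GENCODE M21 coordinates of GRCm38, Dusp1 (ENSMUSG00000024190, chromosome 17, 26505590 to 26562128, minus strand) had 7464 CPM in skin A, 3994 in skin B and 4161 in skin C. In SDLN it had 115, 102 and 114 CPM. The groups did not overlap, and the lowest skin library was 34.6 times the highest SDLN library. The skin mean was 5206 ± 1957 CPM and the SDLN mean 110 ± 7.44 CPM (SD, n = 3 per group), a ratio of 47.1. The fitted log2 fold change was 5.46 with an SE of 0.24, and it lay between 5.21 and 6.13 over 14 alternative fits. In skin B, the library with Foxp3 and Cd4 above the floor, Dusp1 was thus also far above every SDLN library. Foxp3 in skin B was at 28.1 CPM, under the 37.8 to 139 CPM of the SDLN libraries, and the myeloid list there summed to 39017 CPM. Counted per kilobase of exon, Dusp1 ranked 18 among all genes in skin A, 19 in skin B and 18 in skin C, and between 1885 and 2084 in SDLN.

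The gene model of Dusp1 overlaps Ergic1, which lies on the other strand, and whether counting used strand is not given in the sources used here. The printed Dusp1 promoter window lies inside this gene model, so the RefSeq start used for the window differs from the 5′ end of the GENCODE model. Ergic1 had 0, 1073 and 1854 counts in the skin libraries A to C and 12536 to 24578 in SDLN. Dusp1 had 27981, 46894 and 37586 counts in skin and 5389 to 13398 in SDLN. The part of reads from the overlap in these counts was not tested.

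**Figure D1:**
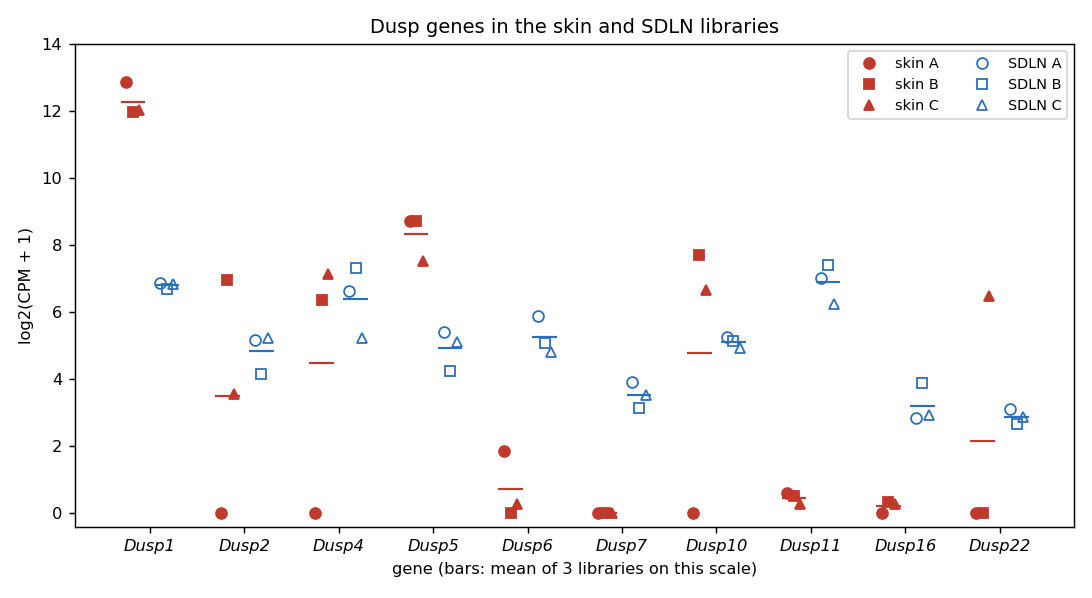
Level of each Dusp gene in each of the 6 libraries, as log2(CPM + 1), with filled red symbols for skin, open blue symbols for SDLN and a bar at the mean of 3 libraries on this scale. Dusp1 and Dusp5 lie higher in all skin libraries, Dusp6, Dusp7, Dusp11 and Dusp16 lie near 0 in skin, and the remaining 4 genes are at 0 in at least 1 skin library.

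Dusp5, a nuclear phosphatase that acts on ERK, was the other member with every skin library above every SDLN library. Dusp5 (ENSMUSG00000034765, chromosome 19, 53529109 to 53542431, plus strand) had 418 CPM in skin A, 424 in skin B and 182 in skin C. In SDLN it had 41.4, 18.2 and 33.5 CPM. The lowest skin library was 4.40 times the highest SDLN library. The skin mean was 341 ± 138 CPM and the SDLN mean 31.0 ± 11.8 CPM (SD, n = 3 per group). The fitted log2 fold change was 3.35 with an SE of 0.87. Over the 14 alternative fits the value for Dusp5 ran from 3.03 to 3.98.

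Dusp2 and Dusp4, the other nuclear inducible members, were spread too widely among skin libraries to be ordered between tissues. Dusp2 (ENSMUSG00000027368, chromosome 2, 127336159 to 127338376, plus strand), an enzyme of activated lymphocytes, was at 0 CPM in skin A, 124 in skin B and 10.8 in skin C. Its SDLN libraries had 35.0, 16.7 and 36.7 CPM. The SDLN values thus lay inside the range of the skin values, and the fitted log2 fold change was 0.66 with an SE of 2.24. It was -2.14 without skin B and -2.56 by limma voom, so its sign turned in these fits. Dusp4 (ENSMUSG00000031530, chromosome 8, 34807297 to 34819894, plus strand), which acts on ERK and JNK, was at 0 CPM in skin A, 81.1 in skin B and 139 in skin C. Its SDLN libraries had 98.1, 157 and 36.5 CPM. Its groups overlapped as well, and its log2 fold change was -0.13 with an SE of 2.21, with values from -2.77 to 0.25 over the alternative fits. Skin A held 0 counts of both genes at the smallest total of the 6 libraries, while it held the highest CPM of Dusp1.

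The cytoplasmic ERK phosphatases were at or near the floor in skin. Dusp6 (ENSMUSG00000019960, chromosome 10, 99263231 to 99267489, plus strand), a feedback inhibitor of ERK, had 10, 0 and 2 counts in skin A, B and C. In SDLN it had 6701, 2410 and 1283 counts, which is 57.7, 33.1 and 27.2 CPM. Its groups did not overlap, as was so with SDLN higher for 53.6% of all genes tested. The log2 fold change of Dusp6 was -5.81 with an SE of 1.9, and it was not called in the main fit. Of the 3649 genes at 30 to 100 CPM in SDLN, 1369 were, like Dusp6, at or under the floor in 2 of the 3 skin libraries. Dusp7 (ENSMUSG00000053716, chromosome 9, 106368632 to 106375724, plus strand) had no count in any skin library and 1643, 569 and 494 counts in SDLN, or 14.1, 7.82 and 10.5 CPM. Against the floor of 3 counts over the skin group, Dusp7 was at least 93.7-fold lower in skin. Among all genes at 10 to 30 CPM in SDLN, the range that Dusp7 falls in, 56.5% were like it at or under the floor in all 3 skin libraries.

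Of the JNK and p38 phosphatases, Dusp10 was above the floor in skin B and skin C and Dusp16 in no skin library. Dusp10 (ENSMUSG00000039384, chromosome 1, 184013302 to 184075636, plus strand) had 0, 206 and 101 CPM in skin A, B and C. In SDLN it had 37.5, 34.3 and 29.5 CPM. Dusp10 was thus above all SDLN libraries in skin B and skin C and at 0 in skin A, and its log2 fold change was 1.76 with an SE of 2.29. By limma voom it was -1.35. Dusp16 (ENSMUSG00000030203, chromosome 6, 134715468 to 134792625, minus strand) had 0, 3 and 2 counts in skin, all at or under the floor, and 714, 995 and 314 counts in SDLN, or 6.15, 13.7 and 6.65 CPM. Of the 2064 genes at 3 to 10 CPM in SDLN, the range of Dusp16, 65.2% were at or under the floor in all 3 skin libraries.

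The atypical members differed in the libraries that held them. Dusp11 (ENSMUSG00000030002, chromosome 6, 85942268 to 85961667, minus strand), a phosphatase that acts on RNA, had 2, 5 and 2 counts in skin A, B and C. In SDLN it had 14934, 12222 and 3563 counts, which is 129, 168 and 75.4 CPM. Among the 1760 genes with a mean of 100 to 300 CPM in SDLN, 412 were, like Dusp11, at or under the floor in 2 of the 3 skin libraries, and 149 in all 3. Dusp22 (ENSMUSG00000069255, chromosome 13, 30659999 to 30711231, plus strand), which has been linked to T cell receptor signalling through Lck, had 791 counts in skin C, or 87.6 CPM, and none in skin A or skin B. It had 7.60, 5.34 and 6.31 CPM in SDLN. Its groups overlapped, and without skin C no count of Dusp22 was left in skin. Its log2 fold change was 2.51, and -0.96 by limma voom.

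Counted over the 10 genes, 2 (Dusp1 and Dusp5) were called higher in skin, where 1.04% of the 13572 genes tested were. In SDLN, 3 (Dusp7, Dusp11 and Dusp16) were called higher, where 45.3% of all genes tested were. Called in either direction were 5 of the 10 members and 46.3% of all genes. The groups did not overlap with skin higher for 2 members (2.39% of all genes) and with SDLN higher for 4 members (53.6% of all genes), and they overlapped for 4. All 10 members passed the filter on low counts. The counts also varied with the fit. Dusp5 was not called with no filter on low counts or without any 1 of the SDLN libraries. Dusp6 was called higher in SDLN by DESeq2, by limma voom, without skin A and without skin B, and Dusp22 without skin C. Since the members were picked with this contrast known, nothing is read from these counts. The median log2 fold change was 0.27 over the 10 members and -2.21 over all genes tested, and nothing is read from this either. The 0.27 lies between Dusp4 and Dusp2, whose values by limma voom were -2.77 and -2.56.

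The other Dusp genes were mostly at or under the floor in skin. Of the 14 other Dusp genes, 7 were tested, 5 were called higher in SDLN and 0 in skin by edgeR, and 12 were at or under the floor in all 3 skin libraries. Of all genes tested, 45.3% were called higher in SDLN and 5878 of 13572 were at or under the floor in all 3 skin libraries, and 6 of the 14 were at or under it in all SDLN libraries too. The count higher in skin was 0 at an unadjusted p under 0.05 too, and 0 by DESeq2 and by limma voom. Of those with 10 CPM or more in a library, Dusp12 and Dusp19 had no count in skin, against a mean of 14.1 ± 2.60 CPM for Dusp12 and 20.9 ± 3.10 CPM for Dusp19 in SDLN (SD, n = 3). Against the floor over the skin group, Dusp12 was at least 118-fold and Dusp19 at least 164-fold lower in skin. Dusp3 (VHR), an atypical phosphatase that acts on ERK and JNK, had 0, 2467 and 199 counts in skin and 1393, 619 and 488 in SDLN. Dusp14 had 0, 1560 and 0 counts in skin and 2007, 1238 and 670 in SDLN. Both were detected in skin B, the deepest of the skin libraries, and neither was in skin A. Dusp8 and Dusp9, the MAP kinase phosphatases outside the 10, had at most 2 counts and 0 counts in any skin library, and Dusp9 had 189, 141 and 43 counts in SDLN.

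Within a library, a share does not depend on the scaling between libraries. Per kilobase of exon, Dusp1 made up 93.0% of the summed CPM of the 10 genes in skin A, 78.5% in skin B and 87.4% in skin C. In SDLN it made up 22.2%, 20.5% and 30.8%. The skin shares averaged 86.3% ± 7.32 and the SDLN shares 24.5% ± 5.51 (SD, n = 3 per group). No SDLN library reached the share of a skin library. Without division by exon length the means were 88.7% and 23.3%, and over all Dusp genes they were 84.4% and 20.0%.

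The sum of the other 9 genes lay higher in every skin library than in any SDLN library, and Dusp5 carried this. It was 170, 331 and 180 CPM per kilobase in the skin libraries A to C, and the SDLN libraries had 122, 119 and 77.4. Without Dusp5 the remaining 8 genes summed to 0.913, 159 and 107 CPM per kilobase in the skin libraries and to 105, 112 and 63.9 in the SDLN libraries, and the groups overlapped. Dusp5 was the highest of the 9 in each skin library. Per kilobase, Dusp4 was the highest in SDLN A and SDLN B, and Dusp2 in SDLN C. Dusp1 was 13.3, 7.04 and 17.1 times the highest of the 9 in the skin libraries A to C, and 0.973, 0.537 and 1.88 times in SDLN. Dusp1 therefore stood far above every paralog in each skin library but above all of them in only 1 SDLN library. By CPM without division by exon length, Dusp11 was the highest of the 9 in every SDLN library, at 129, 168 and 75.4 CPM.

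**Figure D2:**
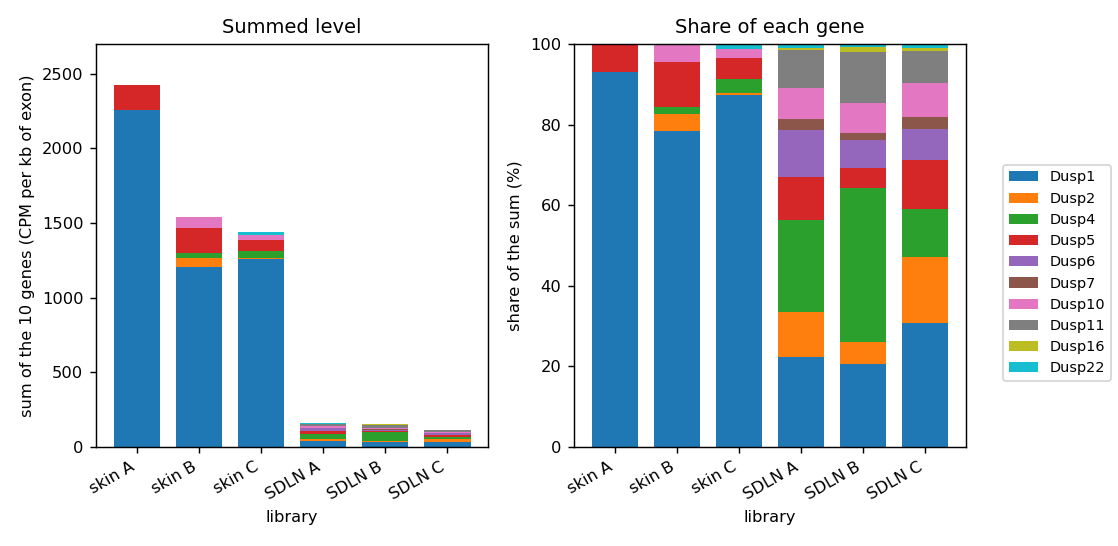
Left, summed CPM per kilobase of exon of the 10 Dusp genes in each library, and right, the share of each gene in that sum in percent, with 1 colour per gene. Dusp1 fills 78.5% to 93.0% of the bars of the skin libraries, and 20.5% to 30.8% of the bars of the SDLN libraries.

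The order of the 10 genes by mean CPM per kilobase in skin was Dusp1 (1572 ± 591), Dusp5 (138 ± 55.8), Dusp10 (33.7 ± 33.9), Dusp4 (26.8 ± 25.5), Dusp2 (22.4 ± 34.2) and Dusp22 (5.71 ± 9.90), with Dusp6, Dusp11, Dusp16 and Dusp7 under 1 (SD, n = 3). The skin libraries of Dusp1 and Dusp5 did not overlap each other or those of Dusp10, while Dusp10, Dusp4, Dusp2 and Dusp22 overlapped. In SDLN the order was Dusp4 (35.5 ± 22.0), Dusp1 (33.4 ± 2.25), Dusp2 (14.7 ± 5.52), Dusp11 (14.2 ± 5.30), Dusp6 (12.6 ± 5.17), Dusp5 (12.5 ± 4.78), Dusp10 (11.1 ± 1.32), Dusp7 (3.22 ± 0.947), Dusp22 (1.26 ± 0.222) and Dusp16 (1.13 ± 0.539). Dusp4 overlapped Dusp1 there, the genes from Dusp2 to Dusp10 overlapped their neighbours, and Dusp7 was separate from both sides.

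The kinases that these phosphatases act on were described on lists of pathway genes, with adjusted p-values from edgeR's quasi-likelihood test. Of 14 genes of the ERK cascade, 0 were called higher in skin and 5 were called higher in SDLN, with a median log2 fold change of 0.02, against -2.21 over all genes. The count higher in skin was also 0 at an unadjusted p under 0.05, by DESeq2 and by limma voom, and 45.3% of all genes tested were called higher in SDLN. Of the ERK cascade, 8 genes were called without skin C and 3 without SDLN A or SDLN B. Mapk3 (ERK1) had 0 counts in skin, and its SDLN mean was 11.6 ± 2.70 CPM (SD, n = 3; adjusted p = 0.00322). Map2k2 (MEK2) had 5 counts in skin B and 0 in the others, against 84.0 ± 18.6 CPM in SDLN (adjusted p = 0.0237). Araf, Ksr1 and Hras had at most 2 counts in any skin library, with 138, 12.6 and 2.85 CPM on average in SDLN. All 5 genes called were thus close to absent from the skin counts. The call was lost for Araf without SDLN A or SDLN B and for Map2k2 without any 1 of the SDLN libraries.

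The upstream genes with the highest levels in the ERK cascade were not called. Nras had 667, 266 and 948 CPM in skin and 419, 288 and 612 in SDLN. Rasgrp1, a Ras activator of T cells, had 113, 137 and 599 CPM in skin and 325, 398 and 180 in SDLN. Its fitted log2 fold change was 0.13, and it was -0.02 with TMMwsp and -0.08 with library sizes alone.

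Of 19 genes of the JNK and p38 cascades, 18 were tested, 1 was called higher in skin (1.04% of all genes tested were) and 6 in SDLN (45.3%), and the median log2 fold change was -0.72, against -2.21 over all genes. Map2k3 (MKK3), a kinase that activates p38, was the gene higher in skin. It had 423, 284 and 561 CPM in skin and 84.5, 113 and 73.8 in SDLN, a log2 fold change of 2.27 with an SE of 0.68 (adjusted p = 0.0358). Map2k3 was called in 8 of 14 alternative fits, and not in the fits with no filter, with at least 10 counts in every library, or without skin C, SDLN A, SDLN B or SDLN C. Mapk8 (JNK1), Map3k7 (TAK1) and Map2k6 (MKK6) had no count in skin and 34.9 ± 5.03, 18.4 ± 5.15 and 8.86 ± 2.06 CPM in SDLN (SD, n = 3; adjusted p of 0.00359, 0.00322 and 0.00322). Mapk14 (p38 alpha) had 0, 0 and 4 counts in skin and 32.6 ± 7.58 CPM in SDLN (adjusted p = 0.022), a call lost without SDLN B or SDLN C. Map3k5 (ASK1) had 0, 0 and 2 counts in skin. Map3k1, Mapkapk3 and Mapkapk2, the genes of highest mean CPM among those not called, had adjusted p-values of 0.387, 0.951 and 0.537.

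The other brakes on Ras and MAP kinases, which are not phosphatases of the Dusp family, numbered 15. Of these, 12 were tested, 0 were called higher in skin and 4 were called higher in SDLN by edgeR, where 45.3% of all genes tested were. The median log2 fold change was -1.53, against -2.21 over all genes. At an unadjusted p under 0.05 the count higher in skin was also 0, and it was 1 by DESeq2 (404 of all 13572 genes tested) and 0 by limma voom. Ptpn5, Spred1 and Spred2 had no count in skin, and Spry1, a feedback inhibitor of Ras signalling, had 1. In SDLN they had 18.4 ± 8.03 CPM (Ptpn5), 6.04 ± 0.933 (Spred1), 4.75 ± 0.513 (Spred2) and 12.3 ± 1.99 (Spry1), with adjusted p-values of 0.00322 to 0.00344. Ptpn7, a tyrosine phosphatase of ERK and p38 in blood cells, had 526, 102 and 29.3 CPM in skin and 328 to 548 in SDLN and was not called (adjusted p = 0.351). Rasa3 and Pea15a were not called either (adjusted p of 0.659 and 0.403).

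Transcription factors that respond to MAP kinases formed the last list of the pathway. Of 20 genes, all tested, 5 were called higher in skin (1.04% of all genes tested were) and 5 were called higher in SDLN (45.3%), with a median log2 fold change of 0.81, against -2.21 over all genes. By DESeq2, 9 were called higher in skin, against 404 of all 13572 genes tested. Fos had 4175, 2478 and 588 CPM in skin and 16.2, 14.8 and 8.57 in SDLN, a log2 fold change of 7.31 with an SE of 0.76 (adjusted p = 0.00322). Atf3 had 1997, 428 and 363 CPM in skin and under 1 in every SDLN library (adjusted p = 0.0105). Jun, Fosb and Junb were also higher in skin, with log2 fold changes of 7.32, 7.83 and 2.55 and adjusted p-values of 0.00609, 0.0101 and 0.00374, and the call of Fosb was lost without SDLN C. For each of these 5 genes, all AP-1 or ATF family members, skin A held the highest CPM, as it did for Dusp1. CPM leave out the scaling factors of the fit (TMM), which were 1.42 in skin A, 0.948 in skin B and 0.783 in skin C. A factor above 1 lowers a level, and the order after this scaling was not compared.

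Of the factors called higher in SDLN, Etv5, an ETS factor downstream of ERK, had 0, 1 and 4 counts in skin, and its SDLN mean was 17.5 ± 9.73 CPM (SD, n = 3; adjusted p = 0.011). The other 4 had no count in any skin library. Ier2, Egr2 and Egr1, immediate early genes as well, were not called (adjusted p of 0.336, 0.123 and 0.912). Egr1 had 137, 504 and 2.77 CPM in skin and 154, 209 and 76.3 in SDLN.

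**Figure D3:**
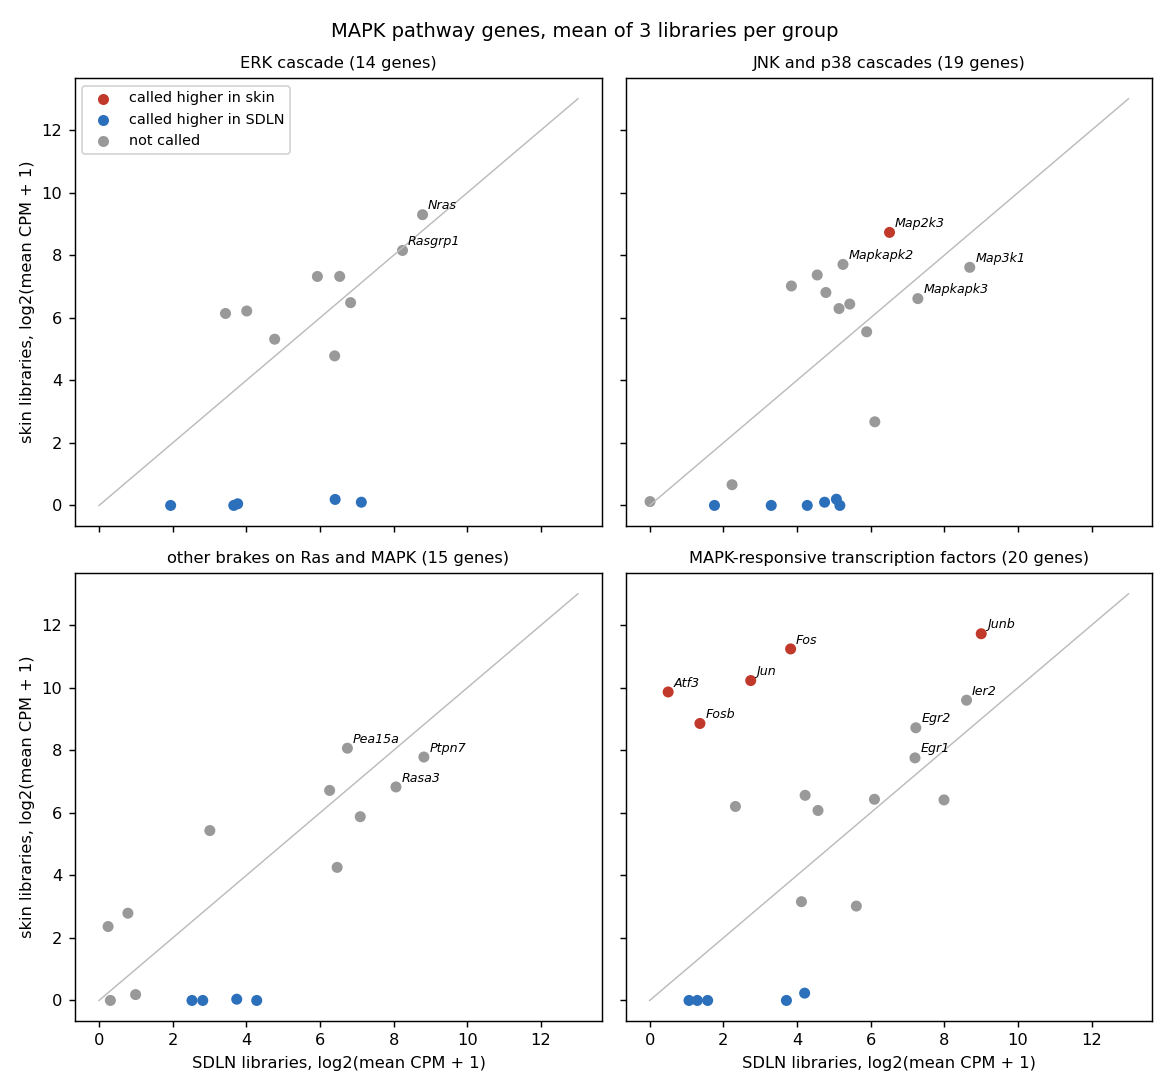
Mean level over the 3 SDLN libraries (horizontal) and the 3 skin libraries (vertical), as log2(mean CPM + 1), for 4 lists of MAP kinase pathway genes, with red for genes called higher in skin, blue for higher in SDLN, grey for not called, and a line of equal level. The blue genes lie at or near 0 in skin, and the red genes are Map2k3 among the kinases and Fos, Fosb, Jun, Junb and Atf3 among the transcription factors.

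Part of a list of 25 dissociation and stress response genes was higher in skin, as Dusp1 was. The list leaves Dusp1 out and shares 8 genes with the transcription factors above. Its summed level was 34649, 21394 and 13890 CPM in the skin libraries A to C and 6631 to 7891 CPM in SDLN, and 9 of its genes were called higher in skin by edgeR (1.04% of all genes tested were) and 1 was called higher in SDLN (45.3%). By DESeq2, 15 were called higher in skin, against 404 of all 13572 genes tested. Of the 9, Fos, Fosb, Jun, Junb and Atf3 are described above. Hspa1a, an inducible heat shock gene, had 5812, 13291 and 4030 counts in skin against 1, 0 and 0 in SDLN (adjusted p = 0.00322). Hspa1b, Btg2 and Dnaja1 were the other genes higher in skin, with adjusted p-values of 0.00372, 0.0241 and 0.0341. In the main fit 10 of the 25 genes were called in either direction, and the log2 fold changes of those not called ran from -0.58 to 3.83. Hspb1, another heat shock gene, was at 0 in every skin library. The part of tissue digestion in the level of Dusp1 was not tested.

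Most of the myeloid list was higher in skin as well. The 20 myeloid genes summed to 61567, 39017 and 34903 CPM in skin A, B and C, which is 8.25, 9.77 and 8.39 times the CPM of Dusp1 in the same libraries, against 525, 446 and 781 CPM in SDLN, or 4.55, 4.38 and 6.85 times. Of 5 B cell genes tested, 4 were called higher in SDLN, where 45.3% of all genes tested were. These 4 were at or under the floor in all skin libraries, as were 5801 of the 6142 genes called higher in SDLN. The B cell list summed to at most 2.66 CPM in skin, against 57.8 to 93.5 in SDLN, and the keratinocyte list was at or under the floor in skin. The fibroblast, endothelial and mast cell or granulocyte lists summed to between 0 and 226 CPM in any skin library. In bulk RNA, more Dusp1 per cell cannot be told apart from more cells of another type that express it. The part of myeloid RNA in the level of Dusp1 was not tested. With libraries scaled to the pan T cell and Treg list in place of all genes, the log2 fold change of Dusp1 was 6.13 with an SE of 0.50.

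**Figure D4:**
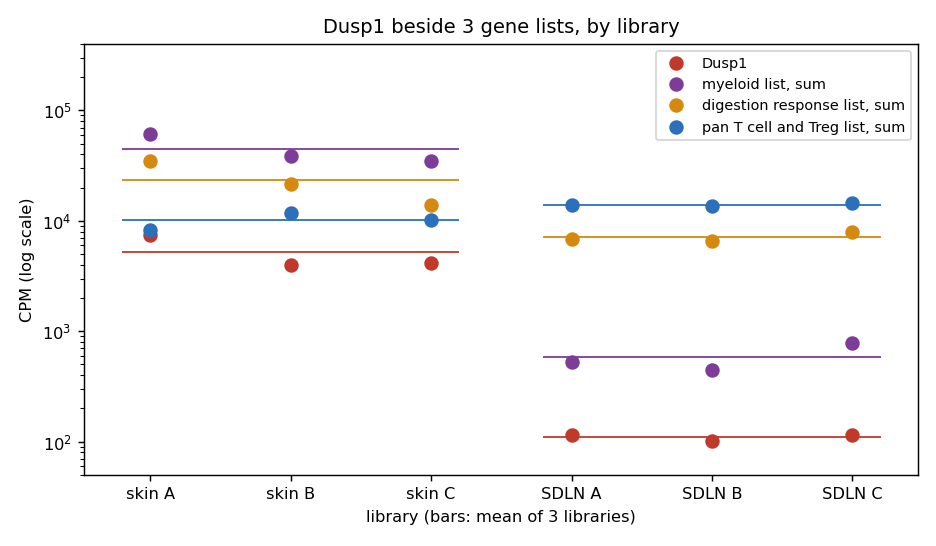
CPM of Dusp1 and summed CPM of the myeloid, digestion response and pan T cell and Treg lists in each library, on a log axis, with bars at the mean of 3 libraries. Dusp1, the myeloid sum and the digestion sum are higher in every skin library than in any SDLN library, while the T cell sum is lower in every skin library (8249 to 11760 CPM against 13732 to 14381).

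The genes whose pattern over the 6 libraries was most like that of Dusp1 were found by Pearson's r of log2(CPM + 1) among 8273 genes with a mean of 10 CPM or more. They were H2-Aa (0.9991), Rab3il1 (0.9989), Mrc1 (0.9988), Ccl6 (0.9987) and Cd209e (0.9986), given as a description over 6 libraries that share their tissue contrast and depth. H2-Aa, an MHC class II gene, had 9816, 3880 and 3166 CPM in skin and 18.5 to 27.2 in SDLN. Mrc1, the mannose receptor of macrophages, had 1141, 269 and 300 CPM in skin and at most 0.106 in SDLN. Both are on the myeloid list. Dusp5 ranked 86 by this measure with an r of 0.964. Dusp2, Dusp4, Dusp10 and Dusp22 had r values from -0.47 to -0.17, and Dusp6, Dusp7, Dusp11 and Dusp16 from -0.99 to -0.93.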

How the data were processed

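RNA of sorted skin and SDLN Tregs was sequenced by the authors in 6 libraries, 3 per tissue. Per the labels, reads were trimmed with Trimmomatic 0.36, aligned with STAR 2.5.2b to GRCm38 and counted per gene with featureCounts of Subread 1.5.2. What the authors deposited are unnormalised counts for each Ensembl gene. Which annotation release was used, whether strand was and how duplicates were treated is not given in the sources used here. Reads carry no molecular identifiers, so the floor of 3 counts covers counting error only.

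Symbols, exon lengths and positions came from GENCODE M21 (GRCm38), which named 49056 of 49315 genes. CPM scales counts to a column total of 1000000, and CPM per kilobase divides by the union of exons. Skin and SDLN were compared with edgeR 4.0.16 (quasi-likelihood test, robust, filterByExpr, TMM, R 4.3.3), with Benjamini-Hochberg adjustment over the 13572 genes tested and a threshold of 0.05. In the text, called means past this threshold, and a fold change is skin over SDLN. The SE of a log2 fold change is its absolute value divided by the square root of the F statistic of the quasi-likelihood test. Libraries are pools of mice, and p-values measure the spread between these libraries. DESeq2 1.42.0, limma 3.58.1 voom, other scalings and filters, and leaving out each library were the alternatives. The fit was also run on simulated counts, drawn around a mean per gene that both tissues shared apart from genes changed on purpose. These counts lack the many genes absent from skin, so that run cannot tell how the fit treats them.

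The Dusp genes, the 12 gene lists and the motifs were chosen with earlier results of these data known. Named genes are the 10 Dusp genes, other Dusp genes with 10 CPM in a library, up to 6 called genes and the 3 highest uncalled genes of each pathway list, the 5 genes most like Dusp1, and marker and digestion genes at 0 in a group or with over 25% of their list's sum. Of the uncalled ERK cascade genes that the rule takes, 1 is not reported here. Foxp3, Cd4, Cd3e, Cd5, Dusp8, Dusp9, Ergic1, Hspa1a, Hspa1b, Btg2 and Dnaja1 were named outside this rule, after their values were seen.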

Additional observations from a re-analysis of the deposited data

How the results depend on the processing

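No paired analysis was possible because libraries are lettered A to C and no source ties these letters to the numbers in the labels. Dusp1 and the Dusp1 share kept their direction in every alternative run. The number of genes higher in skin was 141, and it was 404 by DESeq2, 77 without a filter, 81 where every library had to hold 10 counts, and 71 to 324 on leaving out 1 library (71 without SDLN A, 77 without SDLN B, 81 without SDLN C and 324 without skin A). The minimum of 10 counts in every library removed nearly all genes low in skin, so 1396 genes were tested. Genes higher in SDLN then numbered 9 instead of 6142, Dusp members higher in SDLN 0 instead of 3, ERK cascade genes 0, JNK and p38 genes 0, other brakes 0 and transcription factors 4, and of the Dusp genes only Dusp1 and Dusp5 were tested. Dusp members higher in skin numbered 1 with no filter and 1 to 2 on leaving out 1 library, the lost call being that of Dusp5. Those higher in SDLN numbered 4 by DESeq2, by limma voom and without any 1 skin library, the added call being Dusp6, or Dusp22 without skin C. ERK cascade genes called ranged from 3 to 8 on leaving out 1 library. Scaling to the pan T cell and Treg list, chosen after seeing the data, gave Dusp1 a log2 fold change of 6.13. It moved the median of all genes from -2.21 to -1.93, and TMMwsp moved it to -2.33. Relative to these medians Dusp1 was higher under each scaling. Of the Dusp members' other log2 fold changes under all alternatives, 12 moved by more than the SD between libraries and 106 did not. The sign turned for Dusp2 (-2.56 by limma voom and -2.14 without skin B), Dusp10 (-1.35 by limma voom), Dusp22 (-0.96 by limma voom and -11.35 without skin C, with no skin count left) and Dusp4 (0.19 without skin A and 0.25 without SDLN B), and the cause was not tested. Skin A held 0 counts of 6 of the 10 genes, where its 3748669 counts allow up to 0.800 CPM, and the cause of these zeros was not tested.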
